A study of Mus musculus with 2 samples.

Results

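The LIN28 and let-7 axis was followed through 9 genes chosen by symbol, Lin28a, Lin28b, Dis3l2, Trim71, Hmga1, Hmga2, Igf2bp1, Igf2bp2 and Igf2bp3. All 9 were found among the 55421 genes of the deposited count table. The table held polyadenylated RNA of 2 libraries, KO2 and KO1, from mouse embryonic stem (ES) cells with a knockout of Ago1, a gene for one of the Argonaute proteins that carry microRNAs. These were E14 cells, a line of 129/Ola background from the blastocyst, kept on gelatin in medium with serum and LIF. Whether KO2 and KO1 were separate clones or separate cultures is not in the labels, and their spread may therefore be only technical. Both libraries are Ago1 knockouts by label and no unedited control was analysed here, so no effect of the knockout can be estimated. Ago1 itself had 452 counts in KO2 and 1497 in KO1, or 8.27 CPM (counts per 1000000 reads) in KO2 and 26.4 CPM in KO1. Reads on Ago1 thus remained in both libraries and it was lower in KO2, with a ratio of 0.314 (95% counting interval 0.282 to 0.349), and counts per gene do not show whether these reads come from the mutated part. In bulk RNA, fewer cells with a transcript and less of it per cell cannot be told apart.

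LIN28 proteins and let-7 microRNAs oppose each other. LIN28A and LIN28B bind let-7 precursors, LIN28A with the uridylyl transferases TUT4 and TUT7, and the exonuclease DIS3L2 degrades the uridylated precursors. Mature let-7, loaded into Argonaute, represses mRNAs that carry matches to its seed, among them the mRNAs of LIN28 itself, of TRIM71, of the chromatin protein HMGA2 and of the IGF2BP proteins. In ES cells LIN28A is abundant and mature let-7 is scarce, and let-7 accumulates as cells differentiate.

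The let-7 sequences show what these genes have in common. RefSeq, on GRCm38.p6, listed 12 let-7 family hairpins, counting Mir98, which matched 9 distinct mature 5p sequences. All 9 had the same seed, bases 2 to 8. Members with differences at the first base or in the 3′ part are shown, with the seed in capitals.
mmu-let-7a-5p: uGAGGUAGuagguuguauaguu
mmu-let-7d-5p: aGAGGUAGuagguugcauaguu
mmu-let-7g-5p: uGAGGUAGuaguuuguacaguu
mmu-miR-98-5p: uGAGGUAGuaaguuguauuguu
The seed was found in 11 of 1679 mature mouse microRNAs of the table, and the other 2 were let-7k and miR-1961.

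The precursors carry the element that LIN28 reads. The zinc knuckles of LIN28 bind the letters GGAG in the precursor loop. Read on the RNA strand only, GGAG lay between the mature arms of 9 of 12 let-7 hairpins, starting 7 or 8 bases before the 3p arm. Anywhere between the arms, it was found in 6.95% of 633 other mouse hairpins with both arms annotated, not matched for the length of that stretch. GGAG was chosen as the element that LIN28 binds in these precursors, so the count is a description and no independent support. Mir98, Mirlet7b and Mirlet7c-2 had no GGAG in this stretch. One hairpin of each kind is shown, with GGAG in capitals, Mirlet7g at chr9:106178840-106178927 and Mirlet7c-2 at chr15:85706603-85706697, both on the plus strand of GRCm38.p6.
Mirlet7g: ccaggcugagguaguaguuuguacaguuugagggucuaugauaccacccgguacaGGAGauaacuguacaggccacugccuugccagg
Mirlet7c-2: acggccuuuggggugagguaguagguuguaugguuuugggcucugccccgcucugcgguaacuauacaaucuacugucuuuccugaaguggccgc

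The 3′ UTRs of the 9 mRNAs were searched for the complement of the seed. The motif was CTACCTC on the sense strand (7mer-m8), called an 8mer where the next base was A. In the longest annotated 3′ UTR of each gene, all 9 had at least 1 match, 22 in all, of which 13 were 8mers in 7 genes. Over 21110 protein-coding genes with a 3′ UTR, 10.1% had a 7mer-m8 match and 3.55% an 8mer. The median of the longest 3′ UTRs was 2775 bases for the 9 genes and 1085 bases over all genes, so these shares are not matched for length. Many of the 9 genes are known let-7 targets, so the matches are a description and no independent support. The first match of each gene is shown in a window of 30 bases of the transcript, with the matching letters in capitals.
Lin28a: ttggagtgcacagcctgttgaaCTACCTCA
Lin28b: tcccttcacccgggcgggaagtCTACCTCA
Trim71: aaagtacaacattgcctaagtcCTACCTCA
Hmga1: catcttctcctctgttcacaaaCTACCTCt
Hmga2: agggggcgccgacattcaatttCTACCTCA
Igf2bp1: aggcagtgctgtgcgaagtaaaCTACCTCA
Igf2bp2: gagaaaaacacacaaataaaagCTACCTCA
Igf2bp3: ttaaacgtgcatttttactcaaCTACCTCA
Dis3l2: gtcccctgctgtgtccctaagcCTACCTCt
On GRCm38 the Lin28a window is chr4:134005189-134005218, the Lin28b window chr10:45381022-45381051, the Trim71 window chr9:114512472-114512501 and the Hmga2 window chr10:120364224-120364253, all on the minus strand. The Igf2bp1 window is chr11:95961778-95961807, the Igf2bp2 window chr16:22059473-22059502 and the Igf2bp3 window chr6:49086787-49086816, on the minus strand as well. The Hmga1 window, chr17:27563270-27563299, and the Dis3l2 window, chr1:87048939-87048968, are on the plus strand.

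Matches were unequally spread over the genes. Trim71 had 4 matches, all 8mers, at 166, 262, 3591 and 3617 bases after the stop codon. Igf2bp1 had 4, of which 3 were 8mers, Lin28b and Hmga2 had 4 with 1 8mer each, and Lin28a had 2, both 8mers. Among 3′ UTRs of like length (shorter over longer at least 0.8), 4 or more matches were found in 0.441% for Trim71, 0.310% for Igf2bp1, 0.258% for Lin28b and 0.107% for Hmga2. Igf2bp2, Igf2bp3, Hmga1 and Dis3l2 had 1 match each, and 8.84% to 15.2% of 3′ UTRs of like length had at least 1. Over the 9 genes, the share of 3′ UTRs of like length with an 8mer ran from 3.03% for Hmga1 to 13.3% for Igf2bp1. The Dis3l2 match lies only in the 3′ UTR of 2457 bases of a transcript annotated as a target of nonsense-mediated decay. The Dis3l2 transcript with the longest coding sequence has a 3′ UTR of 350 bases and no match, and for Hmga1 that 3′ UTR has 111 bases and no match.

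**Figure D1:**
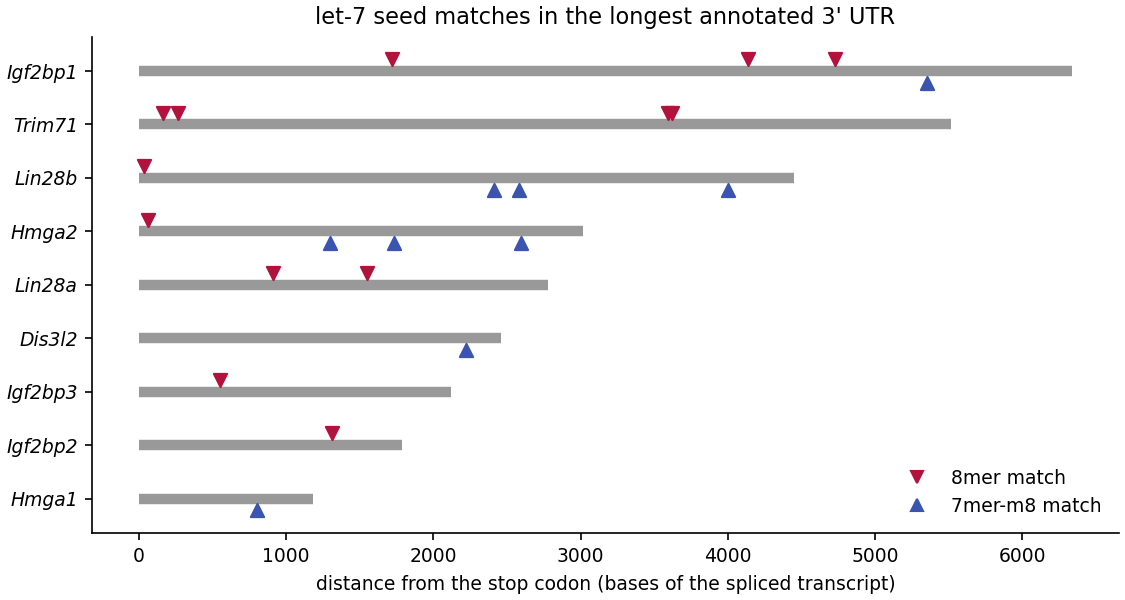
The longest annotated 3′ UTR of each of the 9 genes is drawn to scale as a grey bar, from the stop codon at 0 on the x axis, in bases of the spliced transcript. Downward triangles mark 8mer and upward triangles 7mer-m8 matches to the let-7 seed, 22 in all, with 4 each in Igf2bp1, Trim71, Lin28b and Hmga2.

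All 9 genes reached 1 CPM in each library and were called detected, against 24.1% of all genes in the table and 55.3% of protein-coding genes. Their levels spanned a wide range. Between genes, levels were compared in TPM, the reads per base of a transcript scaled to a sum of 1000000, with the union of annotated exons as length. Lin28a was the highest with a mean of 246 ± 15.8 TPM (SD, n = 2) and Hmga2 the lowest with 6.27 ± 0.440 TPM. Of the 9 genes, 5 lay above the median of 20.1 TPM of 12148 detected protein-coding genes, and 4 of these 5 above the level of 141 TPM that 10% of those genes exceed. Igf2bp3, Lin28b, Dis3l2 and Hmga2 lay below that median.

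**Figure D2:**
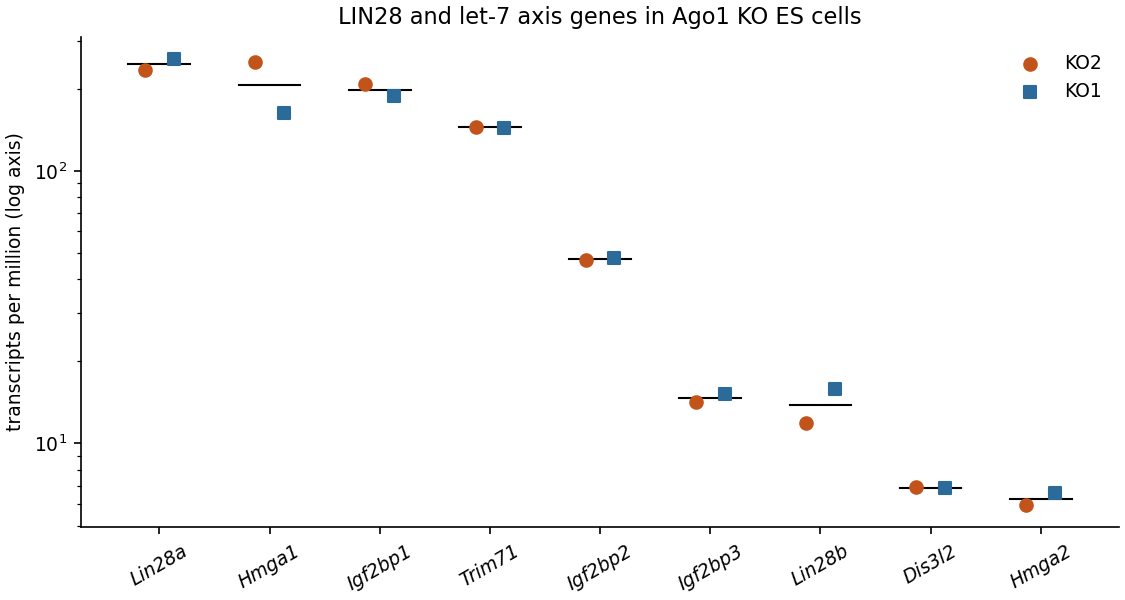
TPM of each gene on a log axis, with KO2 as circles, KO1 as squares and the mean of the pair as a line, ordered by the mean. Lin28a, Hmga1, Igf2bp1 and Trim71 form the upper end, and the libraries differ most for Hmga1, at 250.2 TPM in KO2 and 163 TPM in KO1.

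In the order of levels, some neighbours overlapped between libraries. Lin28a and Hmga1 overlapped, and so did Hmga1 and Igf2bp1. Igf2bp3 and Lin28b overlapped as well. The values of Igf2bp1 lay above those of Trim71 in both libraries, Trim71 above Igf2bp2, Igf2bp2 above Igf2bp3 and Lin28b above Dis3l2. Dis3l2 lay above Hmga2 in both libraries, with means 1.10-fold apart. In KO1 Dis3l2 was at 6.85 TPM and Hmga2 at 6.59 TPM, and counting error was not weighed in this order. With the longest annotated transcript as length their means were closer, at 8.78 TPM for Dis3l2 and 8.38 TPM for Hmga2. With the longest protein-coding transcript, a length added after seeing the data, they were further apart, at 13.3 TPM for Dis3l2 and 7.64 TPM for Hmga2.

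**Figure D3:**
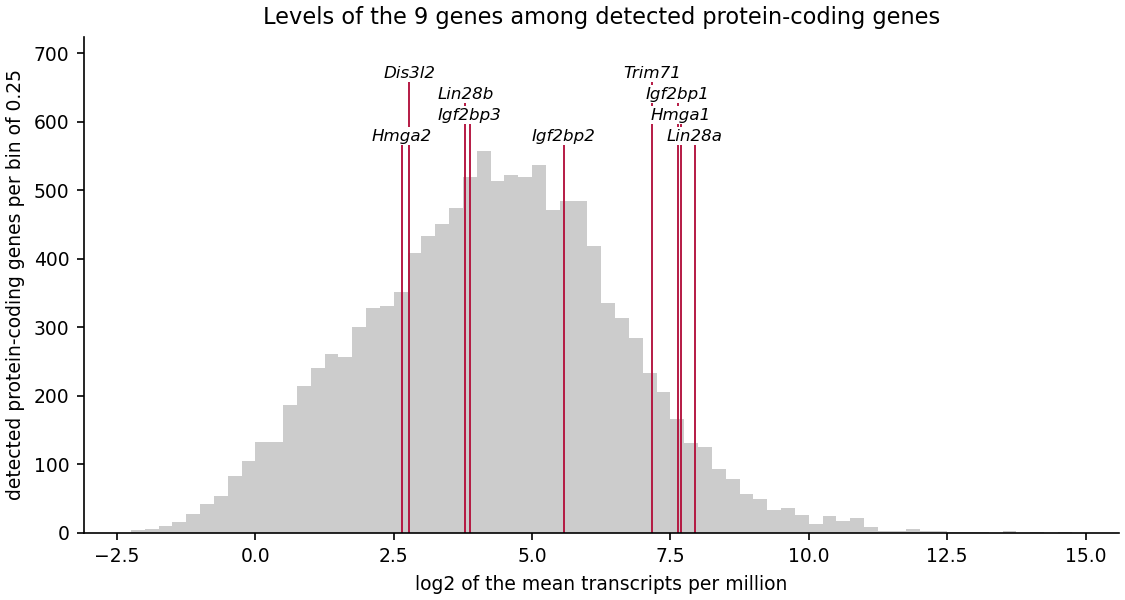
Histogram of the log2 of the mean TPM over 12148 detected protein-coding genes, in bins of 0.25, with the 9 genes as vertical lines. Hmga2 and Dis3l2 lie left of the peak, and Trim71, Igf2bp1, Hmga1 and Lin28a in the right tail.

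Lin28a dominated the LIN28 pair. Lin28a (ENSMUSG00000050966, chromosome 4, 134003330 to 134018841, minus strand of GRCm38) encodes the RNA-binding protein that blocks let-7 maturation with TUT4. It had 15092 counts in KO2 and 16719 in KO1, which were 235 TPM in KO2 and 257 TPM in KO1. Lin28b (ENSMUSG00000063804, chromosome 10, 45376620 to 45486395, minus strand), its paralog, had 1733 counts in KO2 and 2347 in KO1, or 11.9 TPM in KO2 and 15.9 TPM in KO1. Lin28a thus made up 95.2% of the summed TPM of the pair in KO2 and 94.2% in KO1, a mean of 94.7% ± 0.714 (SD, n = 2). Per length it was 19.8-fold above Lin28b in KO2 and 16.2-fold in KO1.

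Dis3l2 was among the lowest of the set. Dis3l2 (ENSMUSG00000053333, chromosome 1, 86703808 to 87050095, plus strand) encodes the exonuclease that removes uridylated let-7 precursors. It had 990 counts in KO2 and 992 in KO1, or 6.91 TPM in KO2 and 6.85 TPM in KO1. The libraries were nearly alike for this gene. Its exon union of 8901 bases includes retained introns, and scaled to its longest protein-coding transcript of 3154 bases its mean was 13.3 TPM.

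Trim71 was abundant and even between libraries. Trim71 (ENSMUSG00000079259, chromosome 9, 114507133 to 114564369, minus strand) encodes the stem-cell protein known as LIN-41 in worms, which represses mRNAs such as that of the cell cycle inhibitor p21. It had 21674 counts in KO2 and 21889 in KO1, or 144 TPM in each.

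The Hmga pair was led by Hmga1, whose level depends on a near-identical copy. Both genes encode proteins that bind AT-rich DNA, and Hmga2 is a classical let-7 target. Hmga1 (ENSMUSG00000046711, chromosome 17, 27556497 to 27563674, plus strand) had 8556 counts in KO2 and 5638 in KO1, or 250.2 TPM in KO2 and 163 TPM in KO1. Hmga2 (ENSMUSG00000056758, chromosome 10, 120361275 to 120476469, minus strand) had 650 counts in KO2 and 726 in KO1, or 5.96 TPM in KO2 and 6.59 TPM in KO1. Hmga2 had the fewest reads of the 9 genes, and its exact Poisson 95% intervals were 11.0 to 12.8 CPM in KO2 and 11.9 to 13.7 CPM in KO1. Hmga1 made up 97.7% of the pair in KO2 and 96.1% in KO1. In a search of the annotated transcripts with the longest coding transcript of each of the 9 genes, only Hmga1 had a match in another gene at 95% identity or more over at least 100 bases. This was Hmga1b on chromosome 11, with 99.8% identity over 1538 of 2001 bases and 3 mismatches.

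Hmga1b, named here because of that match, had 6026 counts in KO2 and 2323 in KO1. Hmga1 itself held 58.7% of the reads of both genes in KO2 and 70.8% in KO1, and no source used here says how shared reads were assigned. Counted together, the copies had 14582 reads in KO2 and 7961 in KO1, with a mean of 366 ± 162 TPM (SD, n = 2). That sum lies above the mean of Lin28a, but in KO1 it was 251 TPM, below Lin28a at 257 TPM. The level of Hmga1 alone is therefore uncertain. The longest annotated 3′ UTR of Hmga1b also had 1 7mer-m8 match to the let-7 seed.

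**Figure D4:**
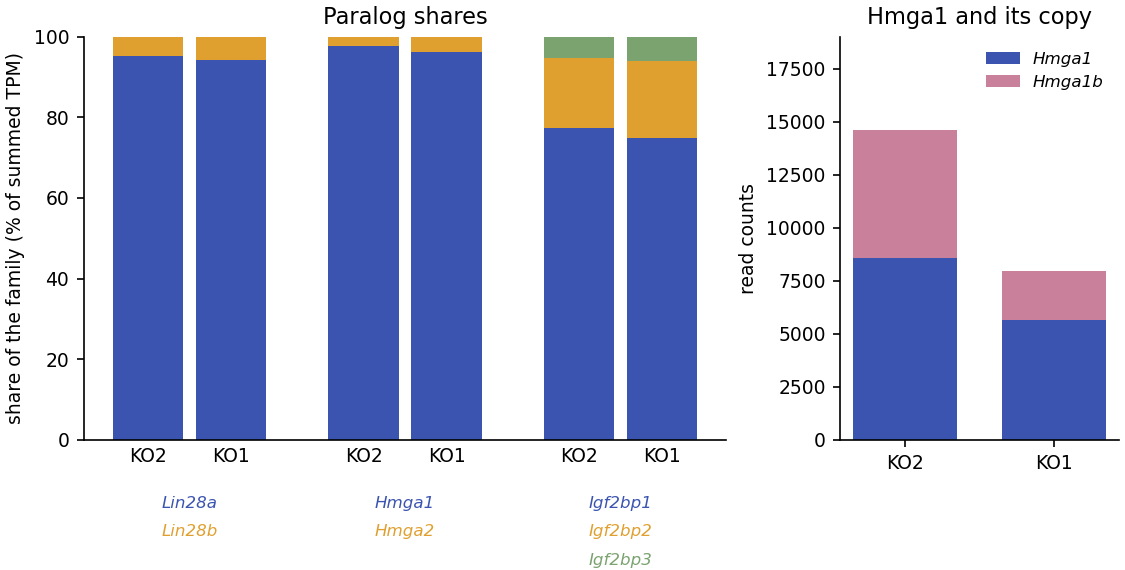
Left, the share of each paralog in the summed TPM of its family, in percent, with KO2 left of KO1 and the gene names in the colour of their segment. Lin28a, Hmga1 and Igf2bp1 hold 94.7%, 96.9% and 76.1% on average. Right, the read counts of Hmga1 and its near-identical copy Hmga1b stacked, 14582 in KO2 and 7961 in KO1.

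All 3 Igf2bp genes were expressed, in steps. They encode RNA-binding proteins that stabilise and localise mRNAs, and Igf2bp1 and Igf2bp3 are largely confined to fetal life in most tissues. Igf2bp1 (ENSMUSG00000013415, chromosome 11, 95957163 to 96005940, minus strand) had the most reads of the 9 genes, 32546 in KO2 and 29562 in KO1, or 209 TPM in KO2 and 188 TPM in KO1. Igf2bp2 (ENSMUSG00000033581, chromosome 16, 22059009 to 22163299, minus strand) had 5593 counts in KO2 and 5778 in KO1, or 46.9 TPM in KO2 and 48.0 TPM in KO1. Igf2bp3 (ENSMUSG00000029814, chromosome 6, 49085223 to 49214957, minus strand) had 1868 counts in KO2 and 2011 in KO1, or 14.2 TPM in KO2 and 15.1 TPM in KO1. Igf2bp1 made up 76.1% ± 1.78 of the trio, Igf2bp2 18.3% ± 1.23 and Igf2bp3 5.65% ± 0.546 (SD, n = 2 each). On the exons of Igf2bp3, 18.7% of the bases lie under Malsu1 on the opposite strand, and for the other 8 genes at most 5.86% lie under an opposite-strand gene. No source used here gives the strand setting of the counting, so reads of Malsu1 may be included.

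The ratios between the libraries were set beside those of all genes. A gene was counted as differing when it had 50 or more reads over both libraries and the 95% counting interval of its ratio, KO2 over KO1, was wholly outside 2-fold. By that rule 0 of 9 differed, against 1.06% of 15619 genes tested, 0.98% higher and 0.0768% lower in KO2, Ago1 among those lower. At 3-fold 0 of 9 differed as well, by construction, against 0.154% of all genes, 0.102% higher and 0.0512% lower. These counts lie near the background and single out nothing about the 9 genes. The comparison is between 2 libraries, not conditions. The median log2 ratio of the 9 genes was 0.01, as was that of all genes tested. At 1.5-fold 1 of 9 passed, Hmga1, which was higher in KO2. Of all genes 6.6% passed at 1.5-fold, 6.4% higher and 0.205% lower in KO2.

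Hmga1 and Lin28b stood furthest from equality. Hmga1 was 1.58-fold higher in KO2 (95% interval 1.53 to 1.63), and counted with Hmga1b the difference was 1.90-fold (1.85 to 1.96). Hmga1b alone was 2.70-fold higher in KO2 (2.57 to 2.83) and passed the 2-fold rule. Lin28b was lower in KO2, with a ratio of 0.768 (0.721 to 0.817). Igf2bp1 had a log2 ratio of 0.20, Trim71 of 0.04 and Lin28a of -0.09, each with an interval that excluded equality. Trim71 was at -0.014 with DESeq2 size factors, which were 1 for both libraries and left the counts unscaled. The intervals cover counting error only, and 65.5% of all genes tested had one that excluded equality, 34.3% higher and 31.2% lower in KO2. For Igf2bp2, Igf2bp3, Dis3l2 and Hmga2 the interval held equality.

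Over all genes the ratios moved with the GC content of the transcripts, and its part in the ratios of the 9 genes was not tested. The longest transcript of Hmga1 has a GC content of 61.4% and that of Lin28b 40.6%, beside a median of 49.6% for the genes tested. For Dis3l2 it is 39.9% and for Trim71 53.8%, and their uncorrected log2 ratios were 0.05 and 0.04. A loess correction for GC content narrowed the spread of all log2 ratios, whose 5th and 95th percentiles were -0.40 and 0.43 with it and -0.49 and 0.86 without it. After it, 0 of 9 genes passed the 2-fold rule, against 0.263% of all genes. With the correction, the log2 ratio of Hmga1 was -0.22 (-0.27 to -0.17) and that of Lin28b -0.04 (-0.13 to 0.05). Hmga1b stayed higher in KO2, at 0.76 (0.69 to 0.83), and Hmga1 and Hmga1b counted together were not corrected. The log2 ratio of Trim71 was -0.23 (-0.26 to -0.21), so that the signs of Hmga1 alone and Trim71 turned. The signs of Igf2bp3, at 0.13 (0.04 to 0.22), and Hmga2, at 0.08 (-0.08 to 0.23), turned as well, from uncorrected values whose intervals held equality. Igf2bp1 kept its sign at 0.13 and Lin28a at -0.12. Dis3l2 had the highest corrected value, 0.41, with the GC content of a retained-intron transcript, and with that of its longest coding transcript it was at -0.08.

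**Figure D5:**
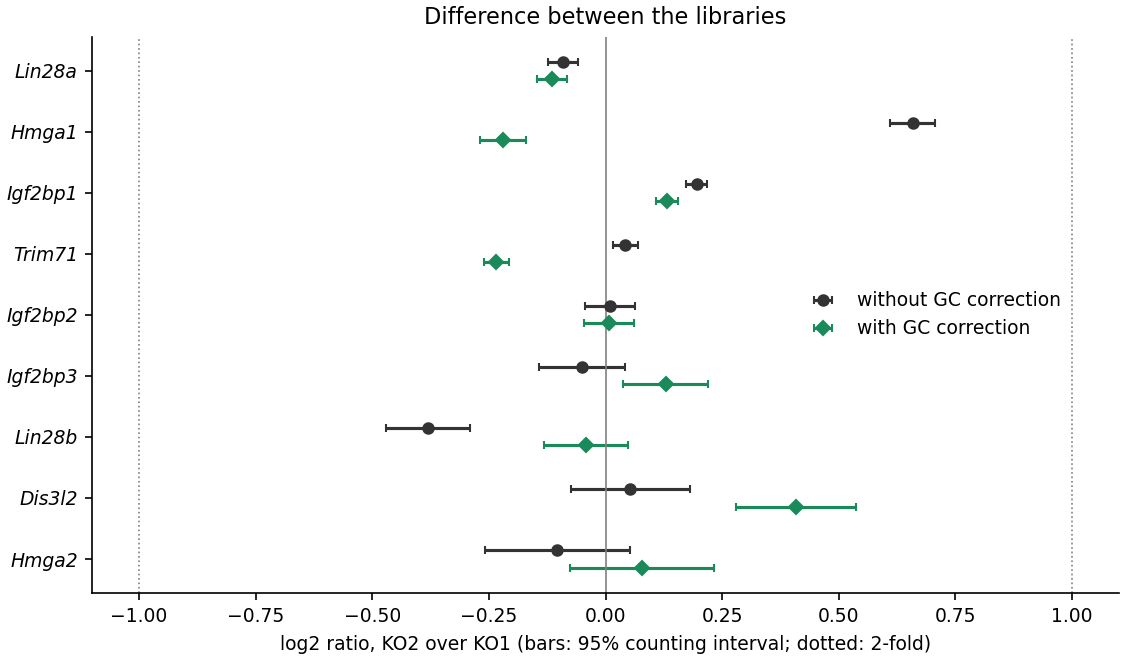
Log2 ratio of KO2 over KO1 for each gene with its 95% counting interval, without (circles) and with (diamonds) the GC correction, and dotted lines at 2-fold. No gene lies beyond 2-fold either way, and Hmga1 lies at 0.66 without and -0.22 with the correction.

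The partners of LIN28 and the factors that process let-7 were all present. Of 16 listed, 16 were detected, against 55.3% of protein-coding genes. By the 2-fold rule 0 of 16 differed, against 1.06% of all genes tested, so this count singles out nothing about the list. Their median log2 ratio was -0.10. Hnrnpa1, which antagonises processing of let-7a, was the highest at 1536 ± 99.9 TPM (SD, n = 2), followed by Drosha, the nuclear nuclease that cuts primary microRNAs, at 218 ± 0.111 TPM. Tut4 was at 34.5 TPM in KO2 and 44.8 TPM in KO1, and Tut7, the other precursor uridylyl transferase, at 12.3 TPM in KO2 and 15.1 TPM in KO1. Tut7 and Msi1, an RNA-binding protein reported to act with LIN28A, were the lowest, with Msi1 at 5.69 ± 1.18 TPM.

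The let-7 loci themselves had almost no counts. The libraries were made from polyadenylated RNA, and how reads in host exons over a microRNA were assigned is unknown. Of the 12 annotated let-7 family loci, only Mirlet7g had a count, 0 in KO2 and 1 in KO1. The genes over them on the same strand differed widely. Wdr82, with Mirlet7g in an intron, was at 180 ± 24.4 TPM, and Huwe1, with Mirlet7f-2 and Mir98 in introns, at 144 ± 8.58 TPM (SD, n = 2 each). The noncoding transcript 6720427I07Rik, with Mirlet7a-1, Mirlet7d and Mirlet7f-1 in its exons, had 218 counts in KO2 and 274 in KO1. Lncppara, over Mirlet7b and Mirlet7c-2, had 3 counts in KO2 and 2 in KO1, and Mir99ahg, over Mirlet7c-1, had 0 in both. Spaca6, over Mirlet7e, had 322 counts in KO2 and 325 in KO1, D630033A02Rik, over Mirlet7i, had 4 in KO2 and 6 in KO1, and 3110039I08Rik, over Mirlet7a-2, had 23 in KO2 and 33 in KO1. These host genes were chosen by their position. Their reads measure host transcripts and not let-7.

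Of 26 other let-7 targets listed, 24 were detected, against 55.3% of protein-coding genes. With enough counts, 0 of 24 passed the 2-fold rule, against 1.06% of all genes tested, and their median log2 ratio was 0.05. The highest were Rrm2, a ribonucleotide reductase subunit, at 598 ± 16.9 TPM (SD, n = 2), and Cdc34, a ubiquitin-conjugating enzyme, at 361 ± 122 TPM. The lowest were Fas, a death receptor, with 13 counts in KO2 and 27 in KO1, and Acvr1c, an activin-type receptor, with 1 in KO2 and 2 in KO1. A 7mer-m8 match was found in 18 of 26, against 10.1% of all protein-coding genes with a 3′ UTR. The median 3′ UTR had 2502.5 bases in this list and 1085 bases over all genes. These genes were listed as let-7 targets, so the matches are a description and no independent support. Nr6a1, a nuclear receptor gene, had the most, 8. Nr6a1, named after its matches were seen, was at 28.5 ± 3.46 TPM.

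RNAs downstream of the IGF2BP and TRIM71 proteins were mostly present. Of 8 RNAs known to bind IGF2BP proteins, 7 were detected, against 24.1% of all genes and 55.3% of protein-coding genes. Actb, cytoplasmic actin, was at 1953 ± 547 TPM, and Myc at 110.1 ± 23.8 TPM (SD, n = 2 each). Igf2, the growth factor mRNA after which the family is named, had 18 counts in KO2 and 4 in KO1, and Cd44, an adhesion receptor, 69 in KO2 and 106 in KO1. Of 7 listed TRIM71 targets, 6 were detected, beside the same shares. Egr1, an immediate early factor, was at 65.1 ± 9.22 TPM, Plxnb2, a semaphorin receptor, at 56.0 ± 15.4 TPM, and Mbnl1, a splicing factor, at 2.92 ± 0.637 TPM. Hoxa5 had 4 counts in KO2 and 0 in KO1. Of the tested members of both lists, 0 passed the 2-fold rule, against 1.06% of all genes tested. Among 6 transcription factor genes bound at Lin28a in ES cells, Pou5f1 and Nanog were the highest at 1489.7 ± 392 and 951 ± 81.1 TPM, and Mycn and Tcf7l1 the lowest at 85.3 ± 7.34 and 26.7 ± 7.38 TPM.

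The label of the cells and the state of the libraries were checked on marker lists. By the rule of 1 CPM in each library, 24.1% of all genes and 55.3% of protein-coding genes were detected, which the counts below stand beside. All 8 ES cell markers were detected, from 205 to 8285 TPM in KO2 and from 189 to 9463 TPM in KO1. Primitive endoderm markers summed to 60.5 TPM in KO2 and 57.1 TPM in KO1, with 6 of 7 detected, primed epiblast markers to 190.4 TPM in KO2 and 167 TPM in KO1 with 3 of 5 detected, most of it from Dnmt3b at 173 TPM in KO2 and 152 TPM in KO1, and neural progenitor markers to 14.3 TPM in KO2 and 13.3 TPM in KO1 with 2 of 5 detected. Of 7 fibroblast markers only Thy1 was detected, and 0 reads fell on Lum or Postn in KO2 or KO1. Skeletal muscle markers summed to 2.89 TPM in KO2 and 20.1 TPM in KO1, with 0 of 7 detected. All 7 were lower in KO2 by the 2-fold rule, and they are among the 12 of 15619 genes tested (0.0768%) called lower. The list was known from earlier work on these data, so this count is a description and no independent support. Total counts were 54408708 in KO2 and 57048330 in KO1. The part of these differences and of that in Ago1 in the ratios above was not tested.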

How the data were processed

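The authors deposited raw gene counts in whole numbers, with 1 column per library. Per the submitters' processing notes, reads were placed on GRCm38. For the aligner, the counter, its annotation and its strand setting, the sources used here name nothing, although the labels call the protocol reverse-stranded. Of 55421 gene identifiers, 55240 were matched to GENCODE release M21, which gave symbols, positions, exon unions and 3′ UTRs. Counts were scaled to CPM with TMM factors from edgeR 4.0.16 in R 4.3.3 (1.00 for KO2 and 0.996 for KO1), and to TPM by exon union. Ratios had a prior count of 0.5 and exact conditional binomial 95% intervals, which cover counting error only and take reads as independent. PCR reads are not independent molecules, so the intervals may be too narrow. With 1 group in duplicate no test between conditions and no p-value was possible. The GC correction was a loess fit (statsmodels 0.14.6) with a span of 0.3 over genes with at least 50 counts. Copies were searched with blastn 2.17.0. Other steps used pandas 2.3.3, scipy 1.17.1, matplotlib 3.10.9 and numpy 2.4.6 under python 3.11.15. The ratio rule was tested on simulated Poisson counts, which hold counting error only, so that test says nothing about other variation between libraries. Alternatives were scaling by DESeq2 1.42.0 or by library size alone, other lengths, thresholds and transcripts, and each library alone.

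The 9 genes and all lists were chosen with earlier results of these data known. The text names the 9 genes, Tut4, Tut7, Ago1, the 2 highest and 2 lowest members of each pathway list by TPM, and any pathway list member past the 2-fold rule. Outside this rule it names Hmga1b, Nr6a1, Malsu1, the let-7 loci with their host genes, and single markers. The skeletal muscle markers are given as a list only. With 2 libraries of 1 group, no gene was named by likeness of pattern.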

Additional observations from a re-analysis of the deposited data

How the results depend on the processing

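All 9 genes stayed detected at 5 CPM and under each scaling. At 0.5 CPM and in each library alone they did so by construction, since all 9 reached 1 CPM in each library. The 0 genes past 2-fold became 1 at 1.5-fold. This count stayed 0 with the other scalings, with both GC corrections and with Hmga1b counted in. At 3-fold and with a higher count filter it was 0 by construction, as these settings can only remove genes. Without the count filter it was 0 by construction too, since each of the 9 genes had at least 1376 reads over both libraries. The log2 ratio of Hmga1 without its copy was 0.66, but -0.22 with the GC correction and -0.21 with the GC content of the longest coding transcript. That of Trim71 was 0.04, but -0.23 and -0.21 in the same way and -0.014 with DESeq2 size factors, which came out as 1 for both libraries. These factors left the counts unscaled, although the totals were 54408708 in KO2 and 57048330 in KO1. The cause of these changes in sign was not tested. In CPM without length scaling, 3 of 9 genes kept their place in the order, and with each library alone 5 to 7 did. Without length scaling the shares were 88.7% for Lin28a, 90.8% for Hmga1, and 80.2%, 14.7% and 5.03% for Igf2bp1, Igf2bp2 and Igf2bp3. With the longest transcript they were 92.4%, 94.9%, 69.9%, 21.7% and 8.43%, and with the longest protein-coding transcript 92.4%, 94.9%, 66.0%, 26.0% and 7.97%. Counted with Hmga1b, the share of Hmga1 was 98.1%. The length chosen sets these values, and the leading paralog was the same in each. Restricting to 8mers left 13 of 22 let-7 seed matches, by construction. With 3′ UTRs of the transcript with the longest coding sequence, 7 of 9 genes had a match. The longest protein-coding transcript, the GC content of coding transcripts and the count with Hmga1b were added after seeing the data. No paired analysis was possible because both libraries belong to 1 group. With 2 libraries, each lies within 1 SD of the mean by construction, so leaving one out says nothing about stability.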
